A study of Mus musculus with 6 samples.

Results

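Messenger RNA of 8 genes that natural killer (NK) cells and cytotoxic T cells share was described in mouse splenic CD8+ T cells after hematopoietic stem cell transplantation (HSCT), in which a host receives blood-forming cells of a donor. The genes were Klrd1, Klrc1, Klrc2, Klrk1, Klrb1b, Klrb1c, Klrg1 and Nkg7, which are 8 of the 14750 genes in the deposited table, and all 8 were found by their symbol. They were chosen by symbol with their FPKM differences between the same 2 groups already known, so their values, and the count of them that passed the fit across all genes, are given as a description and support nothing. The table lists genes whose larger group mean was at least 0.5 FPKM (fragments scaled by gene length and by the depth of the library), and the lowest larger group mean among the 8 was 11.3 FPKM, for Klrb1c. Of the other Klr genes listed, Klrg2 lay nearest to that limit, at 0.575 FPKM.

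The series held 6 libraries. By their labels, cells of the 3 allo-HSCT libraries came from Balb/c hosts with C57BL/6 donors. Those of the 3 syn-HSCT libraries were labelled as from Balb/c hosts with Balb/c donors. A check of these labels is given below. In both groups the cells were taken from spleen with a CD8+ T cell isolation kit, and total RNA was freed of ribosomal RNA before library building. The labels gave no age, sex, conditioning or time after transplantation, and they did not state whether a group's libraries came from separate animals, so errors and p-values reflect only how these libraries vary, and part or all of that variation may be technical.

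Most of these genes lie in the NK gene complex and encode lectin-like receptors. Some of these receptors sense MHC class I or stress-induced ligands on other cells. CD94, the product of Klrd1, pairs with an NKG2 chain: with NKG2A, from Klrc1, the pair is inhibitory, and with NKG2C, from Klrc2, it is activating. NKG2D, from Klrk1, is an activating receptor that signals through an adaptor protein, and KLRG1 is an inhibitory receptor of late effector cells. Nkg7 encodes a membrane protein of cytotoxic granules and is not a lectin receptor. CD8+ T cells acquire many of these genes after activation.

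The libraries were checked against their labels first. The titles carry the letter S for the allo-HSCT-labelled libraries and the letter A for the syn-HSCT-labelled ones. H2-Ea-ps, an MHC class II gene that C57BL/6 mice do not transcribe and Balb/c mice do, stood at 1.44 ± 0.0122 times H2-Eb1 in the allo-HSCT-labelled libraries and at 0.0982 ± 0.0284 times H2-Eb1 in the syn-HSCT-labelled ones (SD, n = 3 each). Ly6a, which is expressed more strongly by C57BL/6 than by Balb/c T cells, was at 28.6 FPKM ± 1.75 and 332 FPKM ± 0.438 in the same libraries (SD, n = 3 each). Both run against the labels, so every direction below is one between libraries as labelled. Donor strain also differs between the groups, and effects of strain and of transplant kind cannot be told apart. Recovered from the FPKM, fragment totals were 15154000 to 16351000 in the allo-HSCT-labelled libraries and 15310000 to 18715000 in the syn-HSCT-labelled ones. CD8 T cell markers were high in both groups and summed to 2018 to 2154 FPKM against 2588 to 2620 FPKM in the same order (8 of 8, 1 called higher, 6 lower and 1 not called), and Cd8b1, the one not called, was at 490 FPKM ± 20.8 and 483 FPKM ± 9.38 (SD, n = 3 each, limma adjusted p = 0.634).

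Markers of other cells moved with the groups. Summed dendritic cell markers (9 of 9 listed, 8 called higher and 1 not tested) were at 1298 to 1385 FPKM in the allo-HSCT-labelled libraries and 116 to 123 FPKM in the syn-HSCT-labelled ones. Summed neutrophil markers (9 of 9, 8 higher and 1 not called) were at 1975 to 2093 FPKM against 94.8 to 104 FPKM, and macrophage or monocyte markers (8 of 8, all 8 higher) at 294 to 297 FPKM against 21.4 to 24.99 FPKM, in the same order. Of 10 NK cell markers, 7 were analysed here, none of them was at 0 in all libraries, 4 were called higher and 2 lower, and their sum was 114 to 120 FPKM against 39.0 to 43.4 FPKM in that order. Their defining gene Ncr1, which encodes the NK receptor NKp46, was at 5.34, 4.65 and 4.54 FPKM in the allo-HSCT-labelled libraries and at 0.721, 1.44 and 0.555 FPKM in the syn-HSCT-labelled ones. Most of the NK marker sum in the allo-HSCT-labelled libraries was Tyrobp, which myeloid cells also express. The other 6 NK markers summed to 35.6 to 39.4 FPKM against 33.8 to 38.2 FPKM, ranges that overlap. These 6 did not move as one. The most abundant, Fcer1g, was lower at 17.6 FPKM against 24.1 FPKM, as was Itga2, while Ncr1, Fcgr3 and Klre1 were called higher and Klri2 was not tested. Gamma delta T cell markers (4 of 11 analysed here, 2 higher, 1 lower and 1 not tested) went the other way in sum, with 7.40 to 8.58 FPKM against 13.1 to 16.2 FPKM, which was carried by Tcrg-C2. B cell markers (4 of 7 analysed here, 1 higher, 1 not called, 2 not tested) summed to 13.3 to 14.5 FPKM against 9.39 to 9.83 FPKM, and CD4 T cell markers (4 of 4, 2 higher, 1 lower, 1 not tested) to 12.6 to 12.9 FPKM against 6.87 to 7.40 FPKM. Erythroid markers (5 of 7 analysed here, all 5 higher) summed to 60.3 to 75.4 FPKM against 1.65 to 1.79 FPKM, and platelet markers (4 of 5, 3 higher and 1 not tested) to 6.03 to 7.84 FPKM against 0.367 to 0.892 FPKM. The 5 listed markers of NKT cells were not analysed here. The part of these cells in the values below was not tested. In bulk RNA, fewer cells of a type and less RNA per cell cannot be told apart.

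**Figure D1:**
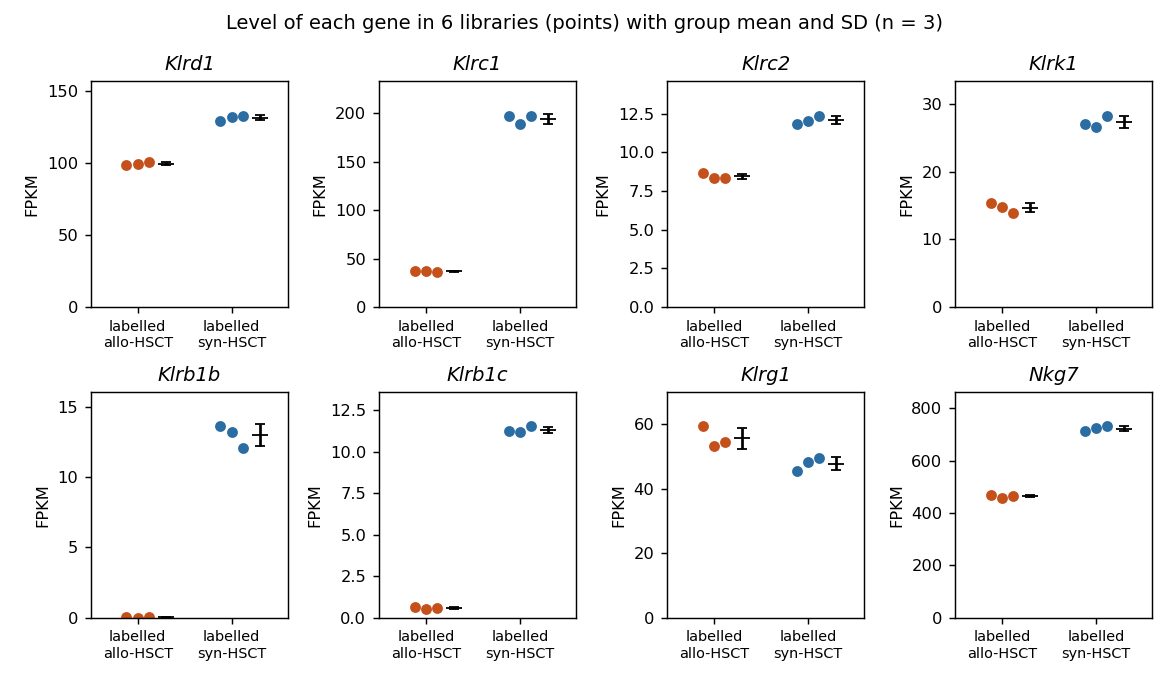
FPKM of each of the 8 genes (vertical axes, from 0) in the allo-HSCT-labelled libraries (orange) and syn-HSCT (blue), with the group mean and SD (n = 3) as a black bar beside the points. 7 genes are lower in the allo-HSCT-labelled libraries, Klrb1b is near 0 there, and Klrg1 is higher, with 53.1 FPKM as its lowest value against 49.4 FPKM as the highest labelled syn-HSCT.

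The CD94 and NKG2 genes were all lower in the allo-HSCT-labelled libraries, but by very different amounts. Klrd1, the gene of the common chain CD94, was at 98.9, 99.0 and 101 FPKM in the allo-HSCT-labelled libraries and at 129, 132 and 133 FPKM in the syn-HSCT-labelled ones. The groups did not overlap, as was so for 72.3% of all genes tested, and the mean was 1.32-fold lower. Klrc1, the gene of the inhibitory chain NKG2A, was at 36.8, 37.5 and 35.7 FPKM in the allo-HSCT-labelled libraries, against 197, 188 and 197 FPKM in the syn-HSCT-labelled ones. Its libraries were tightly grouped, with means of 36.7 FPKM ± 0.89 and 194 FPKM ± 5.14 (SD, n = 3 each), a 5.30-fold lower level. Klrc2, the gene of the activating chain NKG2C, was at 8.66, 8.37 and 8.37 FPKM against 11.8, 12.1 and 12.4 FPKM in the same order. That is 1.43-fold lower, close to the difference of Klrd1 and far from that of Klrc1. On the log2(FPKM + 1) scale the differences (labelled allo-HSCT minus labelled syn-HSCT, with the standard error of limma's fit) were -0.40 ± 0.02 for Klrd1, -2.37 ± 0.03 for Klrc1 and -0.47 ± 0.04 for Klrc2.

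The makeup of the NKG2 transcripts differed between the groups. Per length, Klrc1 made up 57.2% ± 1.09 of the summed FPKM of Klrc1, Klrc2 and Klrc3 in the allo-HSCT-labelled libraries and 87.6% ± 0.641 in the syn-HSCT-labelled ones (SD, n = 3 each). Klrc3, which encodes the chain NKG2E and is not one of the 8, was higher in the allo-HSCT-labelled libraries, at 19.0 FPKM ± 1.16 against 15.3 FPKM ± 1.01 (SD, n = 3 each, limma adjusted p = 0.00443). The ratio of Klrc1 to Klrd1 in FPKM was 0.372, 0.379 and 0.354 in the allo-HSCT-labelled libraries, against 1.53, 1.43 and 1.48 in the syn-HSCT-labelled ones. Klrc1 was thus below its partner gene in every library labelled allo-HSCT and above it in every library labelled syn-HSCT. The ratio of Klrc2 to Klrd1 moved far less, with 0.085 ± 0.00232 and 0.0921 ± 0.00099 in the same order (SD, n = 3 each). The ratio of Klrc1 to Klrc2 was 4.33 ± 0.127 in the allo-HSCT-labelled libraries and 16.1 ± 0.547 in the syn-HSCT-labelled ones (SD, n = 3 each).

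**Figure D2:**
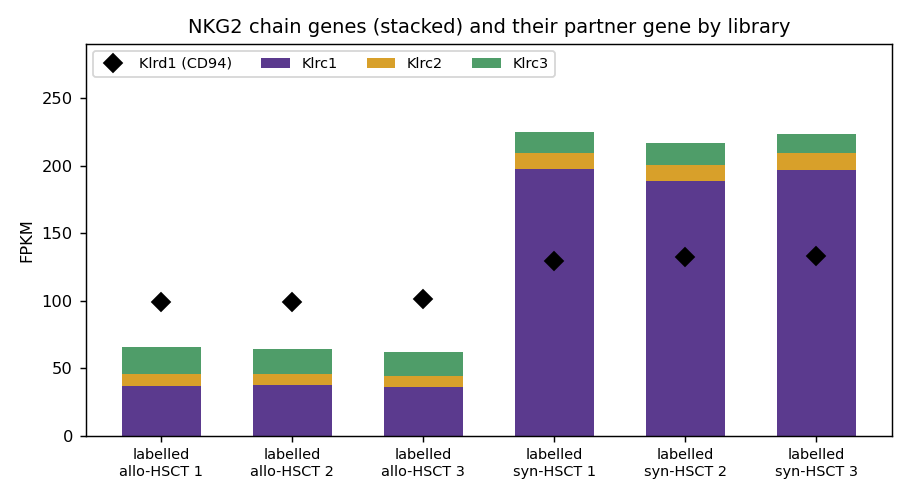
FPKM of the NKG2 chain genes Klrc1, Klrc2 and Klrc3 (stacked bars) and of Klrd1 (black diamonds) in each library. The stack stays below the diamond in the 3 libraries labelled allo-HSCT and rises above it in the 3 labelled syn-HSCT, and nearly all of that gap is Klrc1.

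Klrc1 and Klrc2 are neighbours on the minus strand of chromosome 6. In the GENCODE vM21 annotation of GRCm38, Klrc1 spans chr6:129666015-129678973 and Klrc2 chr6:129647496-129660689, with Klrk1 at chr6:129610323-129623864 and Klrd1 on the plus strand at chr6:129591782-129598775. The promoter sequences of this pair are shown because the 2 neighbours differed by such unequal amounts. They are RefSeq sequences of GRCm38.p6, taken from 250 bases before to 50 bases after the annotated start on the gene's strand, and capitals mark the letters TGTGGT or ACCACA, a RUNX motif read on both strands. The windows are chr6:129678924-129679223 for Klrc1 and chr6:129660547-129660846 for Klrc2.
Klrc1: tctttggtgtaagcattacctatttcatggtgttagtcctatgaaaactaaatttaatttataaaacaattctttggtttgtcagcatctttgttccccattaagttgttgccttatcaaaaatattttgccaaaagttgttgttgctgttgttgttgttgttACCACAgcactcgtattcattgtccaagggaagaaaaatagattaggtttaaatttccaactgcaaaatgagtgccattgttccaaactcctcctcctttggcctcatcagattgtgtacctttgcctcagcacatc
Klrc2: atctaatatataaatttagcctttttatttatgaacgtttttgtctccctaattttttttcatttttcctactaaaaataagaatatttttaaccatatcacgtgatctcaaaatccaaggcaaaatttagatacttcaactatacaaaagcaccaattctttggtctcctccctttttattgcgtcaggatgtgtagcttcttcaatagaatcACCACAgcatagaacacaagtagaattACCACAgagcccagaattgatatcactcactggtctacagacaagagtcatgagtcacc
Klrc1 held the motif at 1 place and Klrc2 at 2 places, and 16.9% of the 27025 promoter windows of this length held it. The 2 transcripts also share sequence: 36.6% of the distinct 50-base words in Klrc1 transcripts occurred in Klrc2 transcripts, and at 100 bases the share was 14.6%. Reads from shared stretches may have been divided or dropped by the authors' counting, which the sources used here do not describe, so the size of the gap between both genes is uncertain. Klrd1, Klrk1, Klrg1 and Nkg7 shared no 50-base word with another gene.

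Klrk1, which encodes NKG2D, was lower in the allo-HSCT-labelled libraries. It was at 15.4, 14.7 and 13.9 FPKM there and at 27.1, 26.6 and 28.3 FPKM in the syn-HSCT-labelled libraries. The values did not overlap, and the mean was 1.86-fold lower, with a log2(FPKM + 1) difference of -0.85 ± 0.04 (SE). The adaptor genes of NKG2D did not share this direction. Hcst, the gene of DAP10, the adaptor that NKG2D uses in T cells, was at 83.1 FPKM against 70.2 FPKM in the same order (limma adjusted p = 0.00215). Tyrobp, the gene of DAP12, which is abundant in myeloid and NK cells, rose to 79.7 FPKM ± 3.03 in the allo-HSCT-labelled libraries, against 5.51 FPKM ± 0.654 in the syn-HSCT-labelled ones (SD, n = 3 each, limma adjusted p = 7.42e-08). Dendritic cell, neutrophil and macrophage markers were higher beside it, by the sums given above. The ratio of Klrk1 to Hcst was 0.177 ± 0.00823 in the allo-HSCT-labelled libraries and 0.390 ± 0.0139 in the syn-HSCT-labelled ones (SD, n = 3 each).

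Among the other signalling genes that these receptors use, more rose than fell. Of 26 listed adaptors, kinases and phosphatases, 24 were tested, and 15 rose, 7 fell and 2 were not called by limma in the allo-HSCT-labelled libraries, with a median log2 difference of 0.26. Over all 12404 genes tested, 34.7% were called higher and 33.0% lower, and the median was 0.01. The 4 most abundant were all higher: the kinase genes Lck (309 FPKM against 275 FPKM) and Fyn (122 FPKM against 99.8 FPKM), the PI3-kinase subunit gene Pik3cd (144 FPKM against 89.2 FPKM), and Ptpn6 (118 FPKM against 102 FPKM), which encodes the phosphatase SHP-1 that inhibitory receptors such as NKG2A recruit. Limma's adjusted p of these 4 was at most 0.00144. Plcg2, a phospholipase gene of NK cells, B cells and myeloid cells, was 4.56-fold higher (adjusted p = 1.60e-07). The 7 that fell included Zap70, the proximal kinase gene of the T cell receptor (62.5 FPKM against 94.7 FPKM), and Fcer1g, which encodes the adaptor used by the Klrb1c product (17.6 FPKM against 24.1 FPKM, adjusted p = 0.00242).

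Ligand genes of these and related lectin-like receptors were measured in the same CD8+ preparations. Of 18 listed, 5 were tested, and 3 were higher, 1 lower and 1 not called in the allo-HSCT-labelled libraries. Over all genes tested, 34.7% were called higher and 33.0% lower. H2-T23, which encodes Qa-1, the ligand of CD94 with NKG2 chains, rose to 141 FPKM ± 3.59, against 105 FPKM ± 0.821 (SD, n = 3 each, limma adjusted p = 7.57e-06). H60b, which encodes a ligand of NKG2D, was at 8.39 FPKM ± 0.894 in the allo-HSCT-labelled libraries and 0.778 FPKM ± 0.233 in the syn-HSCT-labelled ones (SD, n = 3 each, adjusted p = 3.99e-06). Clec2d, which encodes the ligand of the Klrb1b product, was at 55.1 FPKM against 42.4 FPKM (adjusted p = 0.000536), and Clec2i at 17.7 FPKM against 23.2 FPKM (adjusted p = 0.000984). Ulbp1, another NKG2D ligand gene, was at 15.03 FPKM against 16.8 FPKM and was not called (limma adjusted p = 0.0752, range over 14 settings 0.00477 to 0.206). Its limma adjusted p was 0.00477 without replicate 1 labelled syn-HSCT, 0.0489 with TMM factors and 0.0108 with voom on recovered fragments, each a call.

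The largest differences among the 8 genes were in the NKR-P1 receptors Klrb1b and Klrb1c. Klrb1b encodes the inhibitory NKR-P1B, and its values were 0.0288, 0 and 0.0296 FPKM in the allo-HSCT-labelled libraries, against 13.6, 13.2 and 12.1 FPKM in the syn-HSCT-labelled ones. In recovered fragments these are 1, 0 and 1 against 464, 530 and 504. Transcripts of Klrb1b were therefore near the limit of detection in every library labelled allo-HSCT. Scaled by depth, the fragments in the syn-HSCT-labelled libraries were 677 times those in the allo-HSCT-labelled libraries, with an exact 95% interval of 187 to 5593 that covers counting error only. Klrb1c, the gene of NKR-P1C, the NK1.1 antigen of C57BL/6 mice, was at 0.629, 0.537 and 0.557 FPKM in the allo-HSCT-labelled libraries, or 29, 26 and 25 fragments. It was at 11.3, 11.2 and 11.5 FPKM in the syn-HSCT-labelled ones, or 510, 597 and 639 fragments, so the mean was 19.7-fold lower in the allo-HSCT-labelled libraries. The 2 genes were at similar levels in the syn-HSCT-labelled libraries, while Klrb1c exceeded Klrb1b in each library labelled allo-HSCT.

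Klrb1b and Klrb1c lie next to each other on the minus strand of chromosome 6, at chr6:128813706-128826331 and chr6:128778485-128789215 (GENCODE vM21, GRCm38). An annotated locus, Gm44511, runs through both, from 128780285 to 128826315, and is not analysed here. Of the distinct 50-base words in their transcripts, 27.2% of those of Klrb1b and 17.0% of those of Klrb1c occurred in other genes, mostly in Gm44511. Their promoter windows are shown because these 2 neighbours had the largest falls. They are RefSeq sequences of GRCm38.p6, chr6:128826266-128826565 for Klrb1b and chr6:128788592-128788891 for Klrb1c, on the minus strand, with the RUNX motif in capitals.
Klrb1b: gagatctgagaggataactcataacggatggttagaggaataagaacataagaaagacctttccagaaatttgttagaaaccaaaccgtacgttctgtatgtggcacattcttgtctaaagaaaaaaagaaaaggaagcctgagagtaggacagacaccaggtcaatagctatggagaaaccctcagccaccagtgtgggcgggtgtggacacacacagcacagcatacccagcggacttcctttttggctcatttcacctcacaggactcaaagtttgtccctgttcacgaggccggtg
Klrb1c: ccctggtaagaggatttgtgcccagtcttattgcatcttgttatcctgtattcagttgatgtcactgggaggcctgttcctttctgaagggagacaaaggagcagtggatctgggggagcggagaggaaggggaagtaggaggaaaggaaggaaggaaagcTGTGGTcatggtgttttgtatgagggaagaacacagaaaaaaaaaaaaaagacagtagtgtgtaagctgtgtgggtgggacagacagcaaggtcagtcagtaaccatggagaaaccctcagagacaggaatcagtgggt
The motif occurred once in the Klrb1c window, and these letters are not in the Klrb1b window. The sequences are those of the C57BL/6J assembly, and Balb/c alleles were not analysed here. How reads from alleles of each strain aligned was not tested, and strain and group cannot be told apart.

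Their neighbours of the same family went the other way. Klrb1f, which encodes an activating receptor of the family, was at 4.12, 3.35 and 3.98 FPKM in the allo-HSCT-labelled libraries and at 1.23, 1.12 and 0.897 FPKM in the syn-HSCT-labelled ones (limma adjusted p = 4.32e-05). Klrb1a was at 0.927, 0.690 and 0.786 FPKM in the allo-HSCT-labelled libraries and listed at 0 in all 3 labelled syn-HSCT. Against a floor of 3 fragments per library this is at least 7.34-fold higher, and Klrb1a was too low to enter the test. Klrb1a and Klrb1c shared 6.35% of the 50-base words of Klrb1a.

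Klrg1 was the one gene of the 8 with the higher mean in the allo-HSCT-labelled libraries. Its values were 59.3, 53.1 and 54.6 FPKM there and 45.5, 48.2 and 49.4 FPKM in the syn-HSCT-labelled libraries. The groups were close, and the means of 55.7 FPKM ± 3.26 and 47.7 FPKM ± 2.01 (SD, n = 3 each) are a 1.17-fold difference, or 0.22 ± 0.05 (SE) on the log2(FPKM + 1) scale. Klrg1 lies apart from the NK gene complex, at chr6:122270596-122282882 on the minus strand. Cdh1, the gene of its ligand E-cadherin, was at 0.623 FPKM against 0.0877 FPKM in the same order and too low to be tested.

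Nkg7, the most abundant of the 8 genes, was lower in the allo-HSCT-labelled libraries. It was at 469, 458 and 465 FPKM there and at 711, 723 and 731 FPKM in the syn-HSCT-labelled libraries. The mean was 1.56-fold lower, and the log2(FPKM + 1) difference was -0.64 ± 0.02 (SE). Its level exceeded that of 99.5% of the listed genes in the allo-HSCT-labelled libraries and of 99.8% in the syn-HSCT-labelled ones. Nkg7 lies on the plus strand of chromosome 7, at chr7:43437073-43438249. Its promoter window is shown as the one among the 6 found that held both motifs searched, at chr7:43436888-43437187 on the plus strand of GRCm38.p6, with the RUNX motif and a T-box motif (AGGTGTGA or TCACACCT) in capitals.
Nkg7: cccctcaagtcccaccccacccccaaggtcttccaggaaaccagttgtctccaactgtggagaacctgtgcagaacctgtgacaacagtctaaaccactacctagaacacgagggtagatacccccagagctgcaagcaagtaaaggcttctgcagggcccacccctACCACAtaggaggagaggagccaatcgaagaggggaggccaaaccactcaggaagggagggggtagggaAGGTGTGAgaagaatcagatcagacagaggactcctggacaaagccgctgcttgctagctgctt
The T-box letters occurred in 1.27% of the 27025 windows, and in 1 of the 6 windows found for these genes. The RUNX letters occurred in 5 of those 6 and in 16.9% of the 27025 windows, and the 2 kinds of match did not overlap. A match is a description of these letters and not a binding site.

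The granule and effector genes that accompany Nkg7 were lower on balance. All 25 listed genes were tested. In the allo-HSCT-labelled libraries 6 rose, 16 fell and 3 were not called by limma, with a median log2 difference of -0.27. Over all genes tested, 33.0% were called lower and 34.7% higher. Of the 25, 2 passed the filter on low values only through the group where they are high, Serpinb9b among them, and so had to differ. The granzyme genes Gzma (1039.6 FPKM against 2030.4 FPKM) and Gzmb (465 FPKM against 2029 FPKM) fell, as did Prf1, the perforin gene (66.9 FPKM against 244 FPKM), with adjusted p of at most 1.48e-06. Serpinb9b, which encodes a protease inhibitor, was at 0.740 FPKM against 15.8 FPKM, and Gzmc at 0.623 FPKM against 25.6 FPKM. The fall of Nkg7 was smaller than that of Prf1 and Gzmb: the ratio of Nkg7 to Prf1 was 6.94 ± 0.0561 in the allo-HSCT-labelled libraries and 2.95 ± 0.0707 in the syn-HSCT-labelled ones (SD, n = 3 each). Ccl5, which encodes a chemokine of cytotoxic T cells, went the other way, at 1214 FPKM against 338 FPKM (adjusted p = 7.84e-08). Ctsw, a cathepsin gene of cytotoxic cells, was at 294 FPKM against 302 FPKM and was not called (limma adjusted p = 0.159). Its adjusted p was 0.0435 without replicate 1 labelled allo-HSCT, a call, over a range of 0.0435 to 0.358 in 14 settings. Xcl1, a chemokine gene counted as higher, lost its call without replicate 2 or 3 labelled allo-HSCT (limma adjusted p = 0.0591 and 0.0602) or without replicate 1 labelled syn-HSCT (0.0582), over a range of 0.00134 to 0.0602.

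Within each group the order of the 8 levels was almost fully separated. In the allo-HSCT-labelled libraries the order from high to low was Nkg7, Klrd1, Klrg1, Klrc1, Klrk1, Klrc2, Klrb1c and Klrb1b, and no 2 neighbours in it overlapped. In the syn-HSCT-labelled ones it was Nkg7, Klrc1, Klrd1, Klrg1, Klrk1, Klrb1b, Klrc2 and Klrb1c, where only Klrb1b and Klrc2 overlapped, at 13.0 FPKM ± 0.779 and 12.1 FPKM ± 0.276 (SD, n = 3 each). Klrc1 was thus below Klrd1 and Klrg1 in the one order and above both in the other. Replicates were tight: apart from Klrb1b, the SD was 1.10% to 8.44% of the mean in the allo-HSCT-labelled libraries and 1.39% to 4.22% in the syn-HSCT-labelled ones. Summed over the 8 genes, the level was 679.8 FPKM ± 8.40 and 1159 FPKM ± 14.2 in the same order (SD, n = 3 each), of which Nkg7 made up 68.3% and 62.3%.

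All 8 genes entered the fit across 12404 genes, and 7 were called lower and 1 (Klrg1) higher, at a limma adjusted p under 0.05. Of all genes tested, 67.6% were called, 33.0% lower and 34.7% higher, and nothing is read from the count because the genes were named with this comparison known. Klrb1b and Klrb1c passed the filter on low values only through the syn-HSCT-labelled libraries, and so had to differ. The median log2 difference of the 8 genes was -0.74, beside 0.01 over all genes tested.

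The 12 other Klr genes in the table had a higher mean in the allo-HSCT-labelled libraries without exception. The groups did not overlap at 11 of them, the exception being Klra7 at 0.850 FPKM against 0.805 FPKM. Over all genes tested, 72.3% did not overlap. Klrg2, Klri2, Klrb1a and Klra7 were too low to be tested. All 8 that entered the test were called higher by limma, where 34.7% of all genes were, and 3 of these 8 passed the filter only through the allo-HSCT-labelled libraries. Klri1, whose product pairs with that of Klre1 as an inhibitory receptor, was at 18.6, 20.4 and 21.9 FPKM in the allo-HSCT-labelled libraries and at 0.935, 1.06 and 0.956 FPKM in the syn-HSCT-labelled ones (limma adjusted p = 8.12e-08). Klre1 itself was at 3.82 FPKM ± 0.448 against 2.66 FPKM ± 0.0138 (SD, n = 3 each, limma adjusted p = 0.00486). After quantile normalization it was not called (limma adjusted p = 0.0680, range over 13 settings 0.00164 to 0.068). The Ly49 genes Klra5, Klra17, Klra2 and Klra3 were higher too, at 4.67, 1.88, 1.76 and 3.77 FPKM as group means against 0.225, 0.0487, 0.267 and 1.86 FPKM. Ly49 genes differ in number between mouse strains. Of the distinct 50-base words of their transcripts, 20.7% in Klra3 and 12.3% in Klra7 occurred in other genes, so the values of these 2 are uncertain, while the share was 0.656% in Klra5 and 0 in Klra2 and Klra17. Dendritic cell and macrophage marker sums were higher beside these genes, as was Ncr1. The NK marker sum without Tyrobp overlapped between the groups, but its genes went both ways: Fcer1g, its largest part, and Itga2 were lower, while Ncr1, Fcgr3 and Klre1 were higher. Klre1 and Klri2 count both in that sum and among the 12 genes. The part of NK, dendritic and macrophage cells in these values was not tested.

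**Figure D3:**
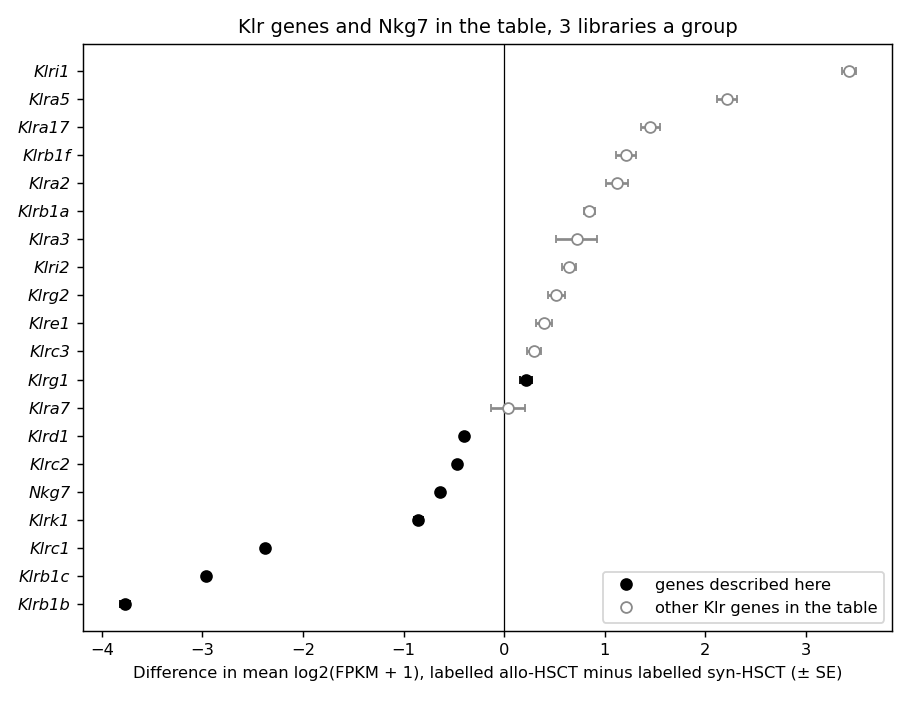
Difference in mean log2(FPKM + 1), labelled allo-HSCT minus labelled syn-HSCT, for the 8 genes described here (filled) and the 12 other Klr genes in the table (open), with the SE from the library SDs (n = 3 a group). The filled points run from -3.77 for Klrb1b to 0.22 for Klrg1, and the open points from 0.04 for Klra7 to 3.42 for Klri1.

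In the wider list of lectin-like receptors and neighbours in the NK gene complex, which holds these 12 as well, 15 of 48 listed genes were tested, and 13 were called higher and 2 lower, with a median log2 difference of 1.21. The list includes genes of myeloid cells, such as Clec9a, a dendritic cell receptor gene (65.4 FPKM against 2.29 FPKM), and Clec12a (7.90 FPKM against 0.434 FPKM), and 6 of the 15 passed the filter through one group alone. Cd69, an early activation gene within the complex, was one of the 2 that fell, at 9.33 FPKM against 18.2 FPKM (limma adjusted p = 8.70e-07), and Clec2i was the other.

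Other receptors that NK cells and effector CD8 T cells share were more often lower. Of 29 tested among 31 listed, 16 were lower, 10 higher and 3 not called in the allo-HSCT-labelled libraries, with a median log2 difference of -0.32. Over all genes tested, 33.0% were called lower and 34.7% higher. Of the 29, 3 passed the filter on low values only through the allo-HSCT-labelled libraries, where they are high, and so had to differ (Pilra, Pilrb1 and Gpr34). The 4 most abundant all fell: Il2rb, the interleukin 2 and 15 receptor beta chain gene (213 FPKM against 474 FPKM), Cd48 (177 FPKM against 361 FPKM), Tigit, an inhibitory receptor gene (29.7 FPKM against 242 FPKM), and the integrin gene Itga4 (80.2 FPKM against 117 FPKM), with adjusted p of at most 2.73e-06. The integrin gene Itgae, which encodes CD103 of tissue-resident T cells and of some dendritic cells, rose to 36.4 FPKM against 3.49 FPKM, and S1pr5, a receptor gene for exit from tissue, to 25.1 FPKM against 2.04 FPKM. Slamf6 and Cd7 were not called, with limma adjusted p of 0.0799 and 0.109 (ranges over 14 settings 0.018 to 0.226 and 0.0432 to 0.906). Slamf6 was called lower without replicate 1 labelled syn-HSCT (limma adjusted p = 0.0321), with TMM factors (0.0428) and with voom on recovered fragments (0.0180). Cd7 was called lower without replicate 3 labelled syn-HSCT (0.0432).

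Transcription factor genes of NK and effector cells were mixed. Of 26 tested among 28 listed, 14 were lower, 9 higher and 3 not called, with a median log2 difference of -0.23. Over all genes tested, 33.0% were called lower and 34.7% higher. Of the 26, 3 passed the filter on low values only through the group where they are high, and so had to differ (Zeb2, Bach2 and Tox2). The pair of T-box factors was split: Tbx21, the gene of T-bet, fell to 68.0 FPKM against 113 FPKM (limma adjusted p = 5.04e-06), and Eomes rose to 39.8 FPKM against 12.9 FPKM (1.60e-07). Runx3, a RUNX factor gene of CD8 T cells, was at 37.9 FPKM against 48.6 FPKM (2.64e-05), and these 3 were picked with their values in view. Of the abundant factors, Ikzf1 and Ets1 fell, while Id2 (211 FPKM against 217 FPKM) and Klf2 (109 FPKM against 109.7 FPKM, adjusted p = 0.842) were not called. For Id2 the direction turned after quantile normalization, where it was called higher at 0.07 on the log2 scale (adjusted p = 0.0210, range 0.021 to 0.643). Tcf7, a factor gene of naive and memory T cells, was at 117 FPKM against 16.3 FPKM, and Irf8, a factor gene of dendritic cells and activated T cells, at 162 FPKM against 20.5 FPKM.

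**Figure D4:**
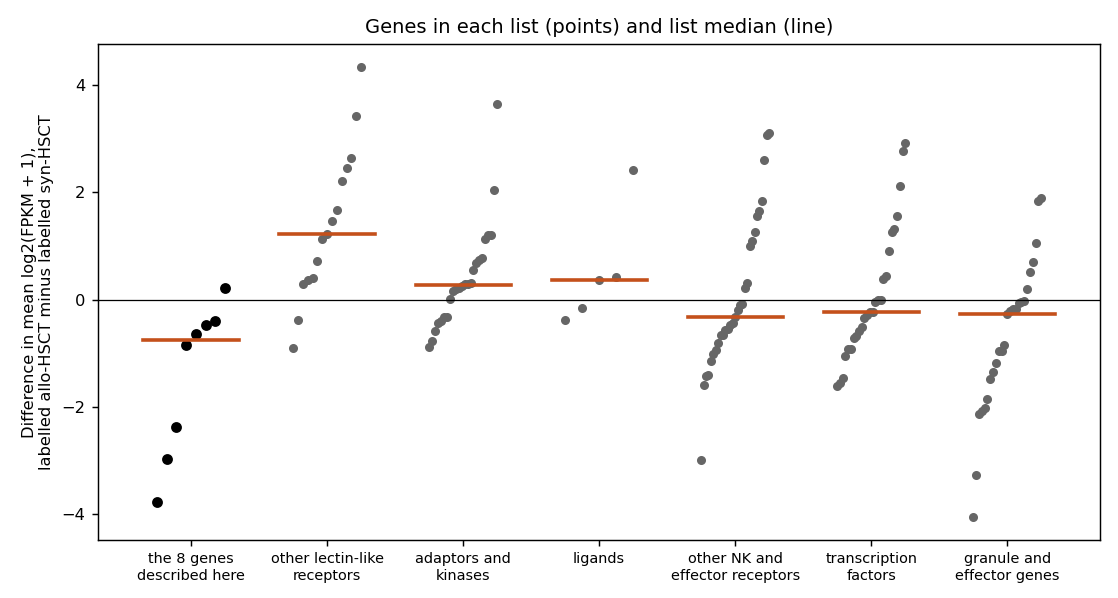
Difference in mean log2(FPKM + 1), labelled allo-HSCT minus labelled syn-HSCT, for the 8 genes described here (left, black) and for the tested genes of the 6 other lists (grey points), with the median of each as a line. The median of the 8 genes is -0.74, that of the other lectin-like receptors 1.21, and those of the last 3 lists lie between -0.32 and -0.23.

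The 8 genes were also set against T cell genes, most of which were lower in the allo-HSCT-labelled libraries. The geometric mean of Cd3d, Cd3e, Cd3g and Cd8a was 122 FPKM ± 3.70 in the allo-HSCT-labelled libraries and 143 FPKM ± 1.36 in the syn-HSCT-labelled ones (SD, n = 3 each). These genes did not move as one: Cd3g was 1.69-fold lower and Cd8a 1.46-fold higher. Relative to that mean, Klrd1 was at 0.814 ± 0.0327 against 0.917 ± 0.0159, Nkg7 at 3.79 ± 0.106 against 5.04 ± 0.0896, and Klrc1 at 0.2995 ± 0.00768 against 1.36 ± 0.0481 (SD, n = 3 each). The relative levels of Klrc1, Klrk1 and Klrb1c were 4.53-fold, 1.59-fold and 16.8-fold lower in the allo-HSCT-labelled libraries, and Klrg1 was 1.36-fold higher. The direction of all 8 genes was the same on this scale. The differences of Klrd1 and Klrc2 on the log2 scale shrank to -0.17 and -0.26.

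**Figure D5:**
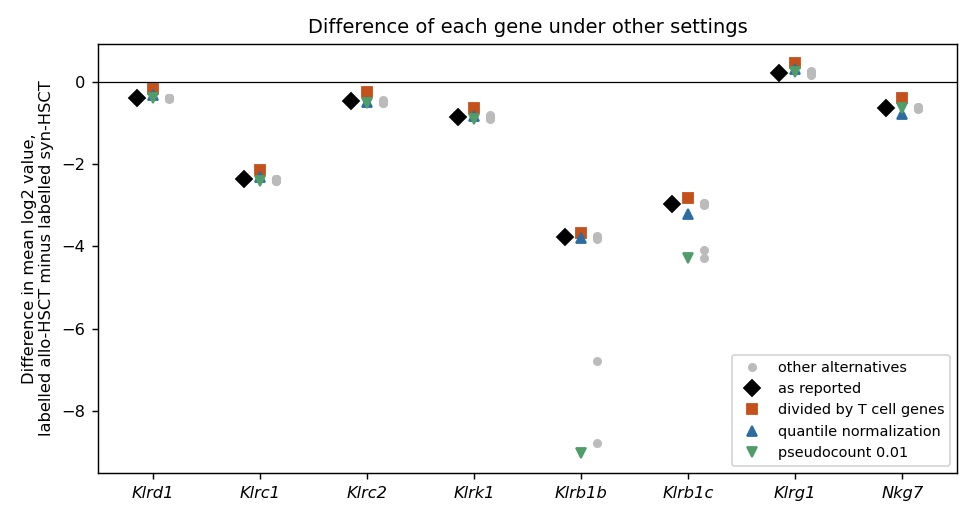
Difference between the groups in mean log2 value for each of the 8 genes as reported (diamond), after dividing by T cell genes (square), after quantile normalization (upward triangle), with a pseudocount of 0.01 (downward triangle) and under the other alternatives (grey circles). The T cell genes are Cd3d, Cd3e, Cd3g and Cd8a. No gene changes sign under the settings shown, and the spread is widest for Klrb1b, from -9.02 to -3.67.

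The genes most like the 8 in level and pattern were sought for the gene with the largest rise and the gene with the largest fall, by Euclidean distance of log2(FPKM + 1) over the 6 libraries. Nearest to Klrg1 were Hsph1 (distance 0.155), Smdt1 (0.158) and Nlrc5 (0.188), all at 56.0 to 58.1 FPKM against 47.7 to 49.0 FPKM as group means. Nearest to Klrb1b were Trim12a (distance 0.351), Oas1a (0.446) and Gldc (0.499). Trim12a was at 0.0260 FPKM ± 0.0172 against 11.7 FPKM ± 0.916, Oas1a at 0.0230 FPKM ± 0.0200 against 11.2 FPKM ± 1.14, and Gldc at 0.147 FPKM ± 0.0236 against 14.95 FPKM ± 0.807 (SD, n = 3 each). All 3 were thus nearly at 0 in the allo-HSCT-labelled libraries, as Klrb1b was. Of the distinct 50-base words of their transcripts, 57.6% in Oas1a and 10.5% in Trim12a occurred in other genes, so both values are uncertain.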

How the data were processed

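RNA was sequenced from 3 allo-HSCT-labelled and 3 syn-HSCT-labelled libraries. The deposited values are FPKM, per gene; the unit was read from the values, and the aligner, counter and genome build are not given in the sources used here. The submitters' processing notes list limma without a role. Multiplied by exon-union length in GENCODE vM21 (14730 identifiers matched, 20 did not), the deposited FPKM were whole multiples of one constant per library, within 0.1 fragments, for 94.3% to 94.6% of values above 0, which gave the fragment totals. For pairs of libraries in a group, the median squared difference was 2.29 to 2.48 times the counting expectation, so none was treated as a library deposited more than once. This does not tell separate animals from separate preparations of the same RNA.

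Genes that reached 1 FPKM in 3 or more of the 6 libraries were fitted as log2(FPKM + 1) with limma 3.58.1 in R 4.3.3 (lmFit, eBayes with trend, no covariate), and Benjamini-Hochberg adjusted p under 0.05 over all 12404 genes was called. This scale understates the change of low genes, and folds are ratios of mean FPKM. The fit was tested on simulated data. The genes, lists and alternatives were chosen with earlier results of these data known. From each list the 4 most abundant genes and the 2 further called genes with the largest difference were to be named, and further genes, Hcst, Zap70, Fcer1g, Prf1, Cd69 and Klra genes among them, were chosen after their values were seen. Lists exclude the 8 genes. Promoters are from RefSeq GRCm38.p6, where 6 of the 8 genes matched by symbol, and the first window listed for each gene was used. Alternatives were 2 pseudocounts, 2 filters, 2 scalings, division by T cell genes, a replicate block and leaving out each library. Limma's voom on recovered fragments was added after the data were seen.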

Additional observations from a re-analysis of the deposited data

How the results depend on the processing

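The 8 genes were chosen with their differences known, so that none of the 120 recomputed differences changed sign is no sign of stability. Their median log2 difference moved from -0.74 to -0.81 after quantile normalization and to -0.52 after division by T cell genes. Klrb1b ran from -9.02 to -3.67, the low end with a pseudocount of 0.01. With genes of at least 5 FPKM alone, fewer genes were tested, 2817 genes were higher and 6 of the other lectin-like receptors were. Lower ligand genes numbered 2 with TMM factors and with voom on recovered fragments, and 1 to 2 when a library was left out, where Ulbp1 was the added gene. The other list counts stayed within 1.5 times those reported. The median of all genes shifted by at most 0.08 in size under any scaling (quantile normalization, by -0.08).

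Replicate numbers were not taken to pair the libraries: deviations of same-numbered libraries correlated across genes at 0.06, 0.12 and -0.08 (replicates 1 to 3), and with the replicate number as a block 4164 genes were higher and 3949 lower, against 4298 and 4092 without it. Depth limits Klrb1b in the libraries labelled allo-HSCT and Klrb1a in those labelled syn-HSCT, where counts were 0 or 1 fragment a library.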
